A study of Saccharomyces cerevisiae YPS1009 with 18 samples.

Results

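The comparison described here is between day 28 and day 1 of culture in AGY1611, a euploid haploid of the oak-soil yeast background YPS1009 carrying a pooled plasmid library. Its members were the 6 samples labelled AGY1611 at these times, 3 per time, out of 18 samples in the series, and all 4872 plasmid rows of the count table were considered. Day 28 was set against day 1 within each culture, because samples with the same replicate number are aliquots of the same flask. The other strain, AGY1612, carries a duplicated chromosome XII and was used here to share the estimate of the spread and to test where the change in the euploid differed.

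All samples shared the MoBY 1.0 library. Its low-copy centromeric plasmids each hold a single yeast gene with native flanks, a DNA barcode and a G418 resistance marker. AGY1611 is MATa and ho-Δ1 and carries a NatMX marker in an intergenic region of chromosome XII. AGY1612 carries its markers on the 2 copies of that chromosome and is also his3-Δ. Frozen stocks of transformed cells were thawed into rich medium with G418 (YPD + G418) and shaken at 30 °C. The day 28 and day 1 samples were scraped as a lawn after 48 hours on solid YPD + G418, a step meant to select cells that could still divide. The starting pool (T0) is the rest of the thawed stock, which was not plated. The 3 replicates of a strain come from 2 independent transformations. The labels give strain numbers only, and ploidy was taken from the published methods and a header line of the count table. Barcodes of plasmids cannot show the copy number of a chromosome, so the ploidy was not checked here.

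Yeast held in spent medium runs out of glucose, passes through respiratory growth on ethanol and then stops dividing. Cells that keep the ability to divide again are called quiescent, and the time for which a culture keeps such cells is its chronological lifespan. Entry into quiescence is known to need low protein kinase A and TORC1 activity, stored trehalose and glycogen, working mitochondria and autophagy. An extra plasmid copy of a gene adds a modest dose of its product. The comparison sets the share of each plasmid in the lawn at day 28 against its share at day 1, and so asks how cells with that extra copy fared relative to the rest of the pool. A share is relative, and fewer cells with a plasmid, fewer plasmids per cell and a gain by other plasmids cannot be told apart from it.

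Sequencing depth was 1125838, 1302971 and 717911 counts at day 28 in cultures 1, 2 and 3, against 1104929, 904993 and 1037173 counts at day 1. Replicates of the same day correlated across plasmids with a Pearson r of log2 levels of 0.731 to 0.814 at day 28 and 0.748 to 0.791 at day 1. Day 28 and day 1 of the same culture correlated at 0.806 to 0.894, above the 0.714 to 0.803 found between different cultures. The cultures thus kept their own composition between the sampling days. Plasmid levels are in CPM (counts in every 1000000 of a library, TMM scaled), in the order of cultures 1, 2 and 3.

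More plasmids had no count at day 28 than at day 1 in each culture, while the evenness of the pool differed by less than the spread of the cultures. Plasmids with no count numbered 499, 945 and 852 at day 28, against 308, 279 and 468 at day 1. The difference averaged 414 ± 239 (SD of the paired differences, n = 3) and was positive in 3 of 3 cultures. An exact two-sided sign-flip test over 3 pairs gave p = 0.25, the smallest value that 3 pairs allow. With every library thinned to 717911 counts the difference was 391. Many plasmids without a day 28 count had day 1 counts at a near-constant share of their T0 level, described further on. Among 41 of them, 41, 40 and 33 had a count at day 1 in cultures 1, 2 and 3. The numbers without a count were not computed with that share subtracted, so its part in the difference was not tested. The effective number of plasmids, the exponential of the Shannon entropy of the count shares, was 2797, 2425 and 2609 at day 28 and 2563, 2798 and 2518 at day 1. It was higher at day 28 in 2 of 3 cultures, and the mean difference of -16 was far inside its paired SD of 317 (exact sign-flip p = 1).

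No plasmid passed the false discovery rate (FDR) threshold of 0.1 in AGY1611. The quasi-likelihood F-test of edgeR, with culture as a block and the spread shared over the 12 day 28 and day 1 libraries of both strains, tested 4508 plasmids and called 0 (0%). The lowest FDR was 0.148. At an unadjusted p under 0.05 there were 193 lower (4.28%) and 52 higher (1.15%) plasmids, 245 in all or 5.43% of those tested. The 3 day 28 values lay wholly below the 3 day 1 values for 299 plasmids (6.63%) and wholly above for 72 (1.6%). The difference had the same sign in all 3 cultures for 804 lower and 430 higher plasmids. The lower side was therefore the heavier one by each count, although no single plasmid was called. The median log2(fold change), day 28 over day 1, was -0.15 over all tested plasmids, with culture medians of -0.04, -0.17 and -0.16.

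**Figure D1:**
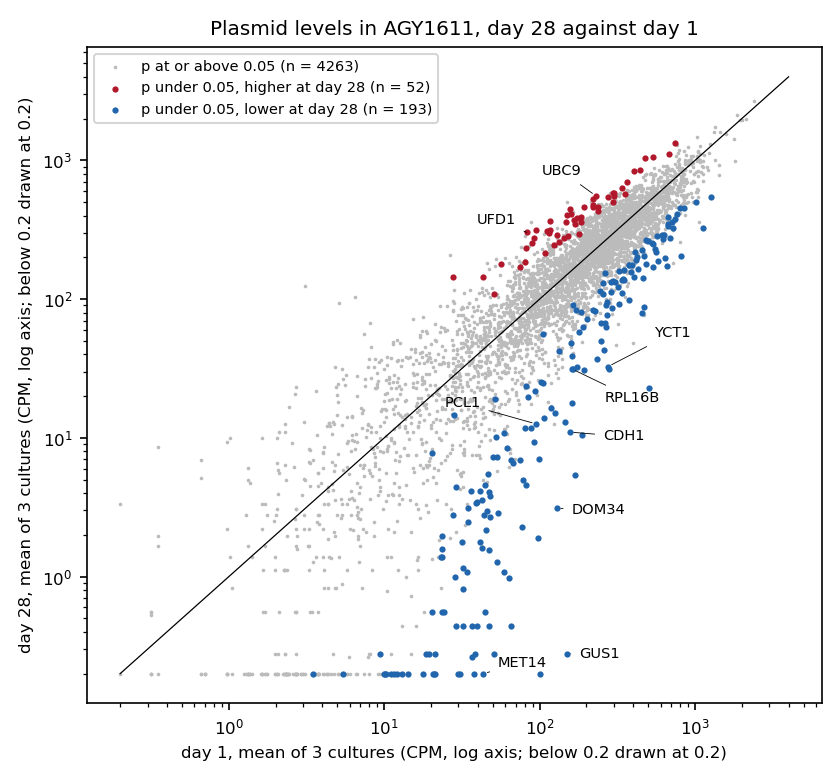
Mean plasmid level at day 28 (vertical, CPM, log axis) against day 1 (horizontal, CPM, log axis) in AGY1611, n = 3 cultures each, for the 4508 tested plasmids; the line marks equal levels. The 193 lower plasmids at unadjusted p under 0.05 (blue) reach the bottom of the plot, while the 52 higher ones (red) stay close to the main cloud.

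The number of calls depended on which libraries set the spread and on the tool. A paired fit to the 6 AGY1611 libraries alone called 8 plasmids, all lower (0.177%), namely YCT1, YSA1, DOM34, SPP381, SSQ1, GUS1, CDH1 and RIM9. YSA1, with 62 counts at day 28 and 1606 at day 1 in all, did not differ in the same direction in all 3 cultures. Its log2(fold change) was -3.96 in the 12-library fit and -6.16 there without culture 3. A fit that also took in the T0 libraries of both strains, 18 in all with 1 coefficient per group, called 42 lower (0.932%) and 1 higher plasmid, SFK1. DESeq2 on the 12 libraries called 37 lower and 2 higher plasmids, UBC9 and SFK1. Of the 8 calls from the 6-library fit, 5 were among the 43 of the 18-library fit and 7 among the 39 of DESeq2, and the last 2 fits shared 22. Of the 42 lower plasmids in the 18-library fit, 27 had no more than 3 counts in all 3 day 28 libraries together.

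YCT1, which encodes a cysteine transporter and lies on chromosome XII, had the lowest p in the main fit. Its level was 87.5, 10.3 and 0 CPM at day 28, against 689, 110 and 25.3 CPM at day 1. Every culture was lower at day 28, but the cultures differed so much in level that the groups overlapped. At day 1 YCT1 stood at 141, 24 and 4.79% of its T0 level. In cultures 2 and 3 this was 1.04 and 0.961 times the T0 share described further on, so only culture 1 stood well above that share. The log2(fold change) was -3.57 ± 0.80 (SE; FDR 0.148 in the edgeR fit). In AGY1612 the same plasmid had 199, 196 and 86 CPM at day 28, against 56.9, 128 and 148 CPM at day 1, a log2(fold change) of 0.55. The strain difference for YCT1, AGY1612 minus AGY1611, was 4.12 ± 1.07 (FDR 0.0904), which passed the threshold.

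RPL16B, a large-subunit ribosomal protein gene, and OM14, an outer mitochondrial membrane protein gene, were also lower at day 28 in all 3 cultures. RPL16B had 70.9, 16.6 and 6.64 CPM at day 28, against 214, 206 and 63.2 CPM at day 1. Its log2(fold change) was -2.78 ± 0.85 (FDR 0.463). OM14 had 2.5, 180 and 94.3 CPM at day 28, against 291, 517 and 160 CPM at day 1, with -2.44 ± 0.75 (FDR 0.487). Culture 1 carried most of the difference for OM14, and the groups overlapped for both genes.

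Several plasmids were almost absent at day 28 after moderate levels at day 1. MET14, the gene of adenylylsulfate kinase in sulfate assimilation, lies beside the centromere of chromosome XI. It had 0 counts in all 3 cultures at day 28, against 44.2, 67.1 and 18.9 CPM at day 1, at least 46.6-fold lower against a floor of 3 counts over the group. TUB2, the β-tubulin gene, had 0 counts in all 3 at day 28, against 21.6, 56.6 and 11.6 CPM at day 1, at least 31.8-fold lower. In both genes all 3 cultures had counts at day 1 and none at day 28, with FDR values of 0.44 and 0.643 in the edgeR fit.

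DOM34, whose product splits stalled ribosomes, lies beside the centromere of chromosome XIV. Its level was 6.67, 0 and 2.66 CPM at day 28, against 129, 222 and 36.8 CPM at day 1, and the groups did not overlap. The log2(fold change) was -5.34 ± 1.49 (FDR 0.44). It turned to 1.51 once the T0 share described further on was subtracted from day 1, a value that was not called and rests on few counts. In cultures 1 and 3 the day 1 level was 0.854 and 0.797 times that share. The subtraction thus left 0 counts at day 1 there, against 8 and 2 counts at day 28. SSQ1, a mitochondrial Hsp70 of iron-sulfur cluster assembly, had 13.3, 0.791 and 17.3 CPM at day 28, against 193, 308 and 60 CPM at day 1 (-4.21 ± 1.26, FDR 0.44). After the same subtraction its value was 1.69 and was not called either. Its day 1 level was 1.01 and 0.946 times the share in cultures 1 and 3. SPP381, a splicing factor gene, had 4.17, 0 and 12 CPM at day 28, against 354, 129 and 21.1 CPM at day 1 (-5.23 ± 1.48, FDR 0.44). All 3 genes were lower in each culture without overlap between the days.

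The same form was seen for NUP60 (nuclear pore basket), DMO2 and IOC2 (a chromatin remodeller subunit), with log2(fold change) values of -5.72, -5.12 and -4.02. A further group had 1 or 2 counts in all at day 28. RNR2, the small subunit gene of ribonucleotide reductase, had 1 count at day 28 and 109 at day 1, a ratio of day 1 to day 28 of 118 after scaling (95% counting interval 20.8 to 4710). The corresponding ratios were 209 (37.1 to 8300) for DEG1, a tRNA pseudouridine synthase gene, 164 (28.9 to 6510) for the sterol desaturase gene ERG3 and 124 (21.7 to 4920) for VPS9, an endosomal exchange factor gene. The second DID4 entry, of ESCRT-III, had 2 counts and a ratio of 71.5 (19.4 to 597), and the mitochondrial ferredoxin gene YAH1 had 1 count and a ratio of 125 (21.9 to 4970). These intervals cover counting error only, since the reads were amplified in 20 cycles of PCR without molecular identifiers.

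**Figure D2:**
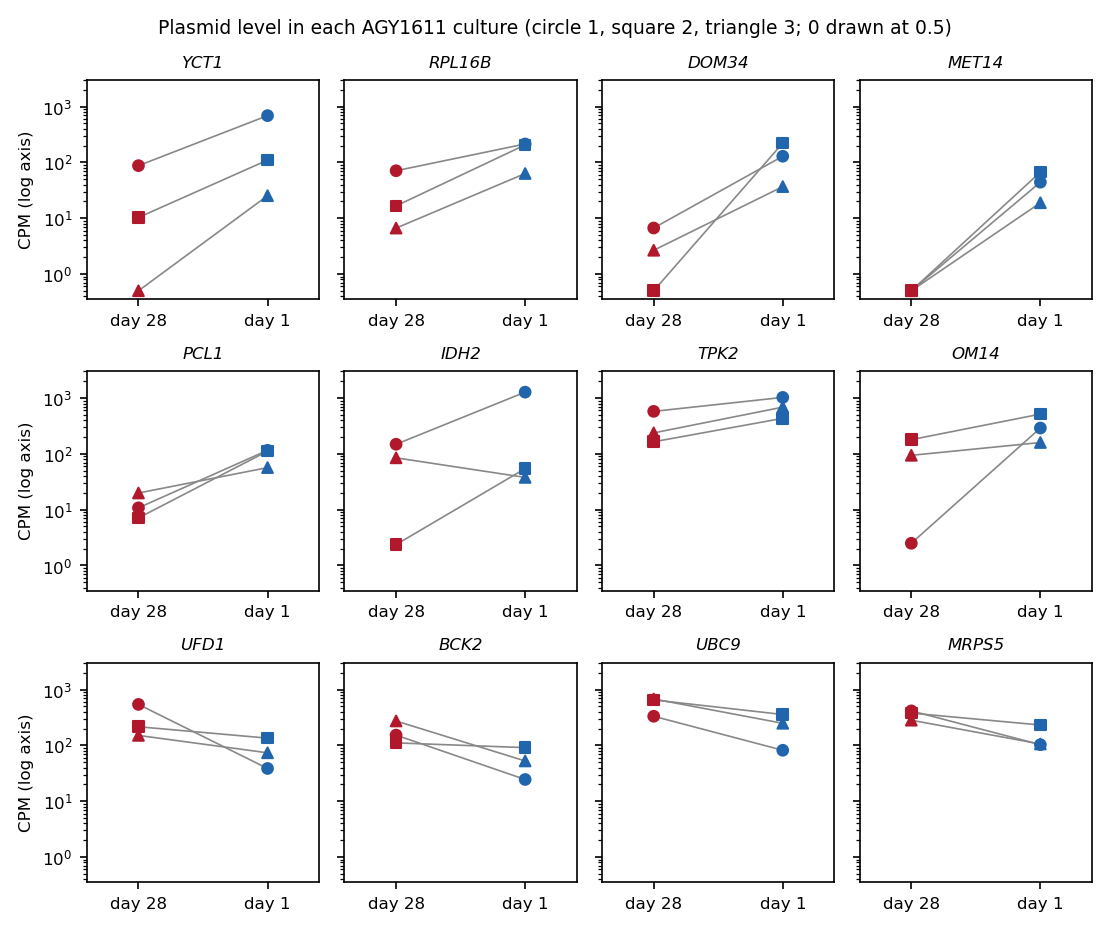
Level of 12 plasmids in each AGY1611 culture at day 28 (left of each panel) and day 1 (right), in CPM on a log axis; lines join the 2 samples of a culture, and 0 is drawn at 0.5. MET14 lies at 0 in all 3 day 28 samples, whereas UFD1, BCK2 and MRPS5 lie higher at day 28 without overlap.

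For many of these plasmids the day 1 level lay at a similar share of the T0 level. For 41 plasmids with 0 counts in all 3 day 28 libraries and at least 20 CPM in T0, the day 1 level was a near-constant share of the T0 level within a culture. The median share was 16.1% in culture 1 (interquartile range 13.5 to 18.6%), 23.1% in culture 2 (19 to 28.8%) and 4.98% in culture 3 (3.45 to 6.75%). A count was present at day 1 for 41, 40 and 33 of the 41. MET14 stood at 14.1, 24.1 and 5.9% of T0 at day 1, DOM34 at 13.8, 29.4 and 3.97%, and RNR2 at 14.3, 24.5 and 8.34%. These genes have different functions, and yet their day 1 shares were close to each other in each culture. Exceptions among the 41 were HOF1, at 345% of T0, and TOM40, at 56.5%, both in culture 1, and in culture 2 SEC15 reached 47%. Outside the 41, SPP381 stood at 69.9% of T0 in culture 1 and YAH1 at 85.2% in culture 3. These shares are computed from unscaled CPM against the T0 sample of the same number.

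**Figure D3:**
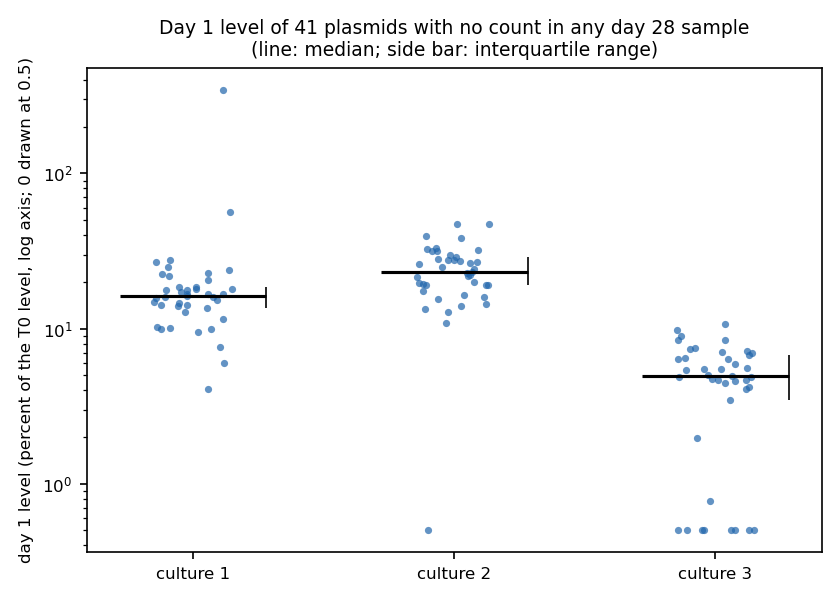
Day 1 level as a percent of T0 (log axis, 0 drawn at 0.5) for 41 plasmids with no count in any AGY1611 day 28 sample, by culture; lines are medians and side bars interquartile ranges. The points gather around 16.1% in culture 1, 23.1% in culture 2 and 4.98% in culture 3.

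The whole day 1 distribution had the same lower edge. Among 3795 plasmids with at least 50 CPM in T0, the first percentile of the day 1 level was 11.4, 21.7 and 3.43% of T0, while at day 28 it was 0 in each culture. Under 5% of T0 were 132, 324 and 217 plasmids at day 28 (3.48, 8.54 and 5.72%), against 3, 0 and 102 at day 1 (0.0791, 0 and 2.69%). The median level in this set was 92.4, 79.5 and 84.8% of T0 at day 28 and 76.4, 83.1 and 79.3% at day 1. Within 2-fold of their T0 level were 71.6, 51.5 and 61.6% of these plasmids at day 28 and 57.9, 66.7 and 56.2% at day 1. Between 5 and 30% of T0 were 315, 559 and 464 plasmids at day 28 and 676, 284 and 673 at day 1. The number under 5% of T0 was thus higher at day 28 in 3 of 3 cultures. The number between 5 and 30% was lower at day 28 in cultures 1 and 3 and higher in culture 2. The 5% line lay below the day 1 share of 16.1 and 23.1% in cultures 1 and 2. In culture 3, with a share of 4.98%, it lay next to that share. Few plasmids could thus fall under 5% at day 1, and the direction of this count is no measure of loss.

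**Figure D4:**
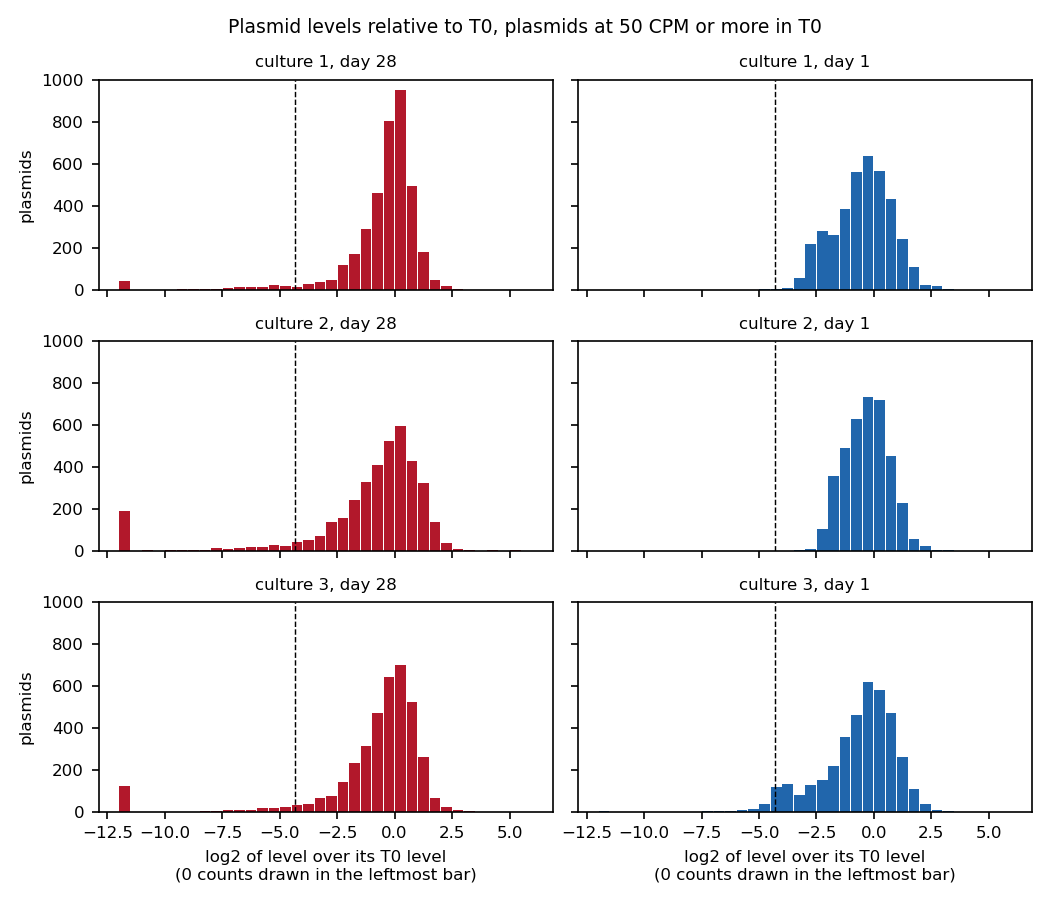
Number of plasmids by log2 of their level over T0 at day 28 (left) and day 1 (right) in AGY1611 cultures 1 to 3, for 3795 plasmids with at least 50 CPM in T0; the dashed line marks 5% of T0. Day 28 has a tail to the left of the line, of 132, 324 and 217 plasmids, and at day 1 this tail holds 3, 0 and 102.

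This lower edge moved with the difference between the days. Of 187 plasmids with an unadjusted p under 0.05, a lower level at day 28 and at least 20 CPM in T0, 86 (46%) lay at day 1 within 2 times of the share given above, or below it, in 2 or 3 cultures. Among all 4247 tested plasmids with this T0 level the number was 739 (17.4%), and among the 52 higher plasmids it was 3 (5.77%). These shares are a description with no test, since the same day 1 levels enter the p. Of the 42 lower plasmids in the 18-library fit, 37 lay there. When that share of T0 was subtracted from the day 1 counts, the edgeR fit again called 0 plasmids, with 76 lower and 66 higher at an unadjusted p under 0.05 and a median log2(fold change) of 0.00. The subtraction was chosen after the shares were seen. Where the constant share comes from, and whether the day 1 counts at that level came from cells that had divided on the plate, was not tested.

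RPL16B and OM14 were among 61 lower plasmids (32.6% of the 187) that stood above this level at day 1 in all 3 cultures. The next 6 in order of p were chosen after their values were seen, and none passed the threshold. MUP1, the gene of the high-affinity methionine permease, had 87.5, 86.2 and 121 CPM at day 28, against 193, 464 and 467 CPM at day 1 (-1.84 ± 0.60, FDR 0.577). REC102, a meiotic recombination gene, had 82.5, 57.7 and 62.4 CPM at day 28, against 300, 175 and 276 CPM at day 1 (-1.87 ± 0.64, FDR 0.628). Neither gene had overlapping groups. RTC2, of a vacuolar amino acid transporter family, had 257, 57.7 and 280 CPM at day 28, against 1460, 174 and 296 CPM at day 1 (-1.40 ± 0.49), and LIF1, a partner of the DNA ligase of end joining, 262, 62.5 and 171 CPM at day 28, against 570, 201 and 522 CPM at day 1 (-1.47 ± 0.51), both with overlap and FDR 0.643. CSM3, of the replication checkpoint, and MND2, of the anaphase-promoting complex, had log2(fold change) values of -2.13 ± 0.76 and -1.96 ± 0.70, both with FDR 0.674.

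A different form was a plasmid that was abundant at day 1 in a single culture. RIM9, a pH-sensing gene, had 0 counts in all 3 cultures at day 28, against 299, 4.19 and 1.05 CPM at day 1, at least 117-fold lower. GUS1, for glutamyl-tRNA synthetase, had 0.834, 0 and 0 CPM at day 28, against 443, 2.1 and 2.11 CPM at day 1. HYR1, a peroxide-sensing peroxidase gene, had 0 counts at day 28 and 111, 3.14 and 0 CPM at day 1 (at least 43.7-fold lower), and HOF1, a cytokinesis gene, 0 counts at day 28 and 89.4, 3.14 and 0 CPM at day 1 (at least 35.4-fold lower). For these 4 plasmids culture 1 supplied nearly all of the day 1 counts.

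CDH1, an activator of the anaphase-promoting complex, had 2.5, 0 and 30.6 CPM at day 28, against 48.9, 12.6 and 406 CPM at day 1 (-4.31 ± 1.24, FDR 0.44). MEP1, an ammonium permease gene, had 1.67, 0 and 12 CPM at day 28, against 68.7, 36.7 and 138 CPM at day 1 (-4.97 ± 1.34, FDR 0.44). URC2, linked to uracil catabolism, had 37.5, 0 and 12 CPM at day 28, against 208, 22 and 123 CPM at day 1 (-3.55 ± 1.11, FDR 0.489). Each of these was lower in every culture, and only MEP1 had groups that did not overlap.

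On the higher side the differences were smaller. UFD1, a partner of the Cdc48 segregase in ubiquitin-dependent protein extraction, had 543, 216 and 151 CPM at day 28, against 38.6, 135 and 73.7 CPM at day 1 (1.77 ± 0.68, FDR 0.816). BCK2, a promoter of G1 gene expression, had 153, 111 and 274 CPM at day 28, against 24.5, 91.2 and 52.6 CPM at day 1 (1.78 ± 0.78, FDR 0.84). These were the 2 of the 8 highest mean paired changes whose groups did not overlap. The other 6 were COQ2 (coenzyme Q synthesis, 2.17 ± 1.06), CRG1 (a methyltransferase gene, 2.05 ± 0.99), CHL4 (kinetochore, 1.91 ± 0.98), RKM4 (ribosomal lysine methylation, 1.89 ± 0.95), POL1 (DNA polymerase α, 1.88 ± 1.29) and ASN2 (asparagine synthesis, 1.55 ± 0.86). All 6 were higher in 3 of 3 cultures, with FDR values of 0.892 to 0.98. COQ2 and ASN2 reached their highest level, 324 and 455 CPM, in culture 1 at day 28. At day 1, COQ2 stood at 0.879 and 0.989 times the constant share of T0 in cultures 1 and 2. CRG1 stood at 1.05 and 1.33 times that share in cultures 1 and 3. Of the 8, only RKM4 lay more than 2 times above it in every culture (2.92, 4.63 and 2.2). How far this day 1 level bears on the size of the higher differences was not tested.

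UBC9, the SUMO-conjugating enzyme gene, had the lowest p among higher plasmids. Its level was 333, 653 and 680 CPM at day 28, against 81.8, 358 and 249 CPM at day 1, with 1.44 ± 0.47 (FDR 0.56; 0.088 with DESeq2). MRPS5, a mitochondrial ribosomal protein gene, had 416, 379 and 283 CPM at day 28, against 103, 232 and 106 CPM at day 1 (1.38 ± 0.49, FDR 0.674). HTZ1, the histone H2A.Z gene, had 588, 1300 and 667 CPM at day 28, against 202, 731 and 399 CPM at day 1 (1.03 ± 0.39, FDR 0.816). Each was higher in all 3 cultures, and only MRPS5 had no overlap.

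The most abundant plasmids were close to level between the days. ATP15, for a small subunit of the F1 ATP synthase, had 2950, 2880 and 2220 CPM at day 28, against 1870, 2870 and 2430 CPM at day 1 (0.18 ± 0.30). SLM5, for the mitochondrial asparaginyl-tRNA synthetase, had 2250, 1940 and 1740 CPM at day 28 and 2440, 2410 and 1580 CPM at day 1 (-0.10 ± 0.31). TAL1, for transaldolase, had 1400, 3590 and 1440 CPM at day 28 and 1790, 2280 and 1500 CPM at day 1 (0.08 ± 0.33). The 3 differences were smaller than their standard errors. The 10 most abundant plasmids of each library held 1.87 to 2.29% of its counts at day 28 and 2 to 2.32% at day 1.

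Genes were also described by function, in 26 lists. None of their members was called (background 0%), so each list is given by its counts and its median. The values over all tested plasmids were a median of -0.15, with 6.63% lower and 1.6% higher without overlap.

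The list furthest from the whole was the set of genes flanking a centromere, by systematic numbering, with 26 plasmids tested. Its median log2(fold change) was -1.73, with culture medians of -0.96, -2.29 and -0.48. Of the 26, 10 (38.5%) were lower without overlap and 2 (7.69%) higher. At an unadjusted p under 0.05, 11 were lower, against 193 of all 4508 tested plasmids (4.28%). No count at day 28 was found for 5, against 115 of all tested plasmids. Besides MET14, DOM34 and DEG1 the members of lowest p were LOC1, an mRNA localization and ribosome assembly gene, with 0 counts in all 3 at day 28, against 27.3, 29.3 and 7.37 CPM at day 1 (at least 23.1-fold lower), and HAT1, a histone acetyltransferase gene, with 32.5, 0 and 0 CPM at day 28, against 96.9, 61.8 and 18.9 CPM at day 1. At day 1, 15 of the 26 (57.7%) stood within 2 times of the constant share of T0, or below it, in 2 or 3 cultures, against 20.6% of all tested plasmids. With that share subtracted the list median was -0.53. The part of this day 1 level in the difference was not tested further.

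The cyclin list also had a low median. The list of cyclins, their kinase and inhibitors had 18 tested plasmids, a median of -1.0 and culture medians of -0.64, -1.59 and -0.81. A negative value was found for 16 of them (88.9%), against 59.1% of all tested plasmids. Of the 18, 9 were lower in all 3 cultures and 0 higher in all 3, against 804 and 430 of all 4508 tested plasmids. Without overlap, 3 (16.7%) were lower. PCL1, a G1 cyclin gene of the Pho85 kinase, had 10.8, 7.12 and 19.9 CPM at day 28, against 116, 112 and 56.8 CPM at day 1 (-2.97 ± 1.02, FDR 0.628). CLB1, a mitotic cyclin gene, had 5, 0 and 5.31 CPM at day 28, against 61.1, 44 and 12.6 CPM at day 1 (-3.70 ± 1.84, FDR 0.916). CLB6, an S-phase cyclin gene, had 23.3, 0 and 0 CPM at day 28, against 41.4, 13.6 and 6.32 CPM at day 1, with overlap. At day 1, 7 of the 18 (38.9%) stood at or near the constant share of T0, and the list median was -0.29 after its subtraction and -0.45 without culture 2.

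In the citric acid cycle list 10 plasmids were tested, with a median of -1.31, culture medians of 0.04, -1.20 and -0.64, and 1 (10%) lower without overlap. IDH2, a subunit of isocitrate dehydrogenase, had 149, 2.37 and 85 CPM at day 28, against 1280, 54.5 and 37.9 CPM at day 1 (-2.17 ± 0.86, FDR 0.816). It was lower in cultures 1 and 2 and higher in culture 3. ACO1, the aconitase gene, had 675, 96.5 and 331 CPM at day 28, against 80.9, 76.5 and 191 CPM at day 1 (1.36 ± 0.59, FDR 0.84). CIT3, a citrate and methylcitrate synthase gene that also flanks a centromere, had 0 counts at day 28, against 22.6, 35.6 and 3.16 CPM at day 1, at least 22-fold lower. Members of the cycle thus lay on both sides, and the list median was -0.30 without culture 2 and -0.25 after the subtraction.

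Genes of the Ras and protein kinase A pathway, which restrains entry into quiescence, had a median of -0.45 over 15 tested plasmids. Of these, 5 were lower and 0 higher in all 3 cultures, against 804 and 430 of all 4508 tested plasmids. Without overlap, 2 (13.3%) were lower. TPK2, a catalytic subunit of the kinase, had 579, 165 and 238 CPM at day 28, against 1030, 434 and 689 CPM at day 1 (-1.25 ± 0.45, FDR 0.696). YAK1, a kinase that acts against growth signals, had 0 counts in all 3 at day 28, against 13.2, 12.6 and 7.37 CPM at day 1 (at least 11.9-fold lower), and CYR1, the adenylate cyclase gene, 0 counts at day 28, against 4.7, 8.38 and 2.11 CPM at day 1 (at least 5.42-fold lower). TPK2 stood at 126 to 289% of T0 at day 1, and YAK1 and CYR1 at 6.45 to 44%. Of the 15, 7 (46.7%) stood at day 1 within 2 times of the constant share of T0, or below it, in 2 or 3 cultures. The part of all tested plasmids that did so was 20.6%. With that share subtracted the list median was -0.37. BCY1, the regulatory subunit, was at 237, 122 and 147 CPM at day 28 and 285, 136 and 279 CPM at day 1 (-0.45 ± 0.51).

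The lists tied to survival in resting cells had medians close to that of all plasmids. TORC1, Sch9 and linked kinases had a median of -0.12, with 3 of 21 (14.3%) lower without overlap, and the vacuolar ATPase one of -0.18, with 2 of 18 (11.1%) lower and 1 higher. Autophagy had -0.22 with 2 of 33 (6.06%) lower, and antioxidant enzymes -0.16 with 2 of 22 (9.09%) lower. Trehalose and glycogen had -0.04 with 0 of 17 in either direction, and the stress and stationary-phase response 0.13 with 1 of 22 (4.55%) in each. VMA1, the catalytic subunit of the vacuolar ATPase, had 0, 0 and 1.33 CPM at day 28, against 31, 68.1 and 11.6 CPM at day 1, while VMA2, its nucleotide-binding partner, had 449, 246 and 757 CPM at day 28 and 169, 341 and 342 CPM at day 1. SOD2, mitochondrial superoxide dismutase, had 9.17, 4.75 and 7.97 CPM at day 28, against 52.7, 77.5 and 20 CPM at day 1 (-2.61 ± 1.30, FDR 0.916; 0.86 after the subtraction). ATG39, a receptor for autophagy of the nuclear envelope, had 277, 83 and 178 CPM at day 28, against 912, 222 and 311 CPM at day 1 (-1.32 ± 0.51, FDR 0.816), and SPG3, named for stationary-phase growth, 291, 352 and 308 CPM at day 28 and 199, 283 and 221 CPM at day 1 (0.45 ± 0.49). VMA1 and SOD2 stood at 4.03 to 29.1% of T0 at day 1, and ATG39 at 88.7 to 322%.

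Mitochondrial and translation genes had medians near that of all plasmids as well. The respiratory chain and ATP synthase list had a median of 0.00 over 34 plasmids, with 1 lower without overlap (2.94%) and 0 higher. Cytochrome oxidase assembly had -0.25 (1 of 28 lower without overlap, 3.57%), mitochondrial ribosomal proteins -0.06 (1 of 65 lower, 1.54%, and 2 higher, 3.08%), cytosolic small-subunit proteins -0.08 (2 of 54 lower, 3.7%, and 1 higher, 1.85%) and large-subunit proteins -0.21 (6 of 74 lower, 8.11%, and 1 higher, 1.35%). RPL34A had 336, 588 and 569 CPM at day 28, against 504, 732 and 1790 CPM at day 1 (-0.85 ± 0.41), and RPS9A had 441, 877 and 434 CPM at day 28, against 119, 502 and 281 CPM at day 1 (1.10 ± 0.48). COX19, a copper-binding assembly factor gene, had 714, 266 and 243 CPM at day 28, against 768, 397 and 1140 CPM at day 1 (-0.95 ± 0.46). These 3 differed in 1 direction in all cultures, with FDR values of 0.84 to 0.891.

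Protein quality control was described because the study followed it up in the aneuploid. The ribosome quality control and rescue list had 16 tested plasmids and a median of -0.23, with DOM34 lower (6.25%) and UFD1 higher (6.25%) without overlap. At day 1, 6 of the 16 (37.5%) stood within 2 times of the constant share of T0, or below it, and with that share subtracted the list median was 0.11 and the DOM34 value 1.51. RQC1, of the quality control complex on the large subunit, had 287, 60.1 and 357 CPM at day 28, against 390, 107 and 239 CPM at day 1 (-0.23 ± 0.51, FDR 0.998). RKR1, the ligase also called LTN1, had 12.5, 37.2 and 0 CPM at day 28, against 0, 6.29 and 1.05 CPM at day 1 (2.50 ± 2.05, FDR 0.994). HEL2, the sensor of collided ribosomes, had 5, 0 and 128 CPM at day 28, against 42.3, 13.6 and 49.5 CPM at day 1 (-2.21 ± 1.74, FDR 0.994; from -4.10 to -0.74 with a culture left out). RQC1, RKR1 and HEL2 each differed in direction between cultures. RQC2 was not tested, with 1, 0 and 0 counts at day 28 and 0, 2 and 0 at day 1, and no difference was detectable at this depth.

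UBI4, the polyubiquitin gene, had 35, 39.5 and 78.4 CPM at day 28, against 51.7, 51.3 and 137 CPM at day 1 (-0.58 ± 1.0, FDR 0.998). The list of ubiquitin, conjugating enzymes and HECT ligases had a median of -0.12 (1 of 18 lower without overlap, 5.56%), and the proteasome list one of -0.02 (0 of 35 in either direction). PRE5, a proteasome core subunit gene, had 136, 137 and 1110 CPM at day 28, against 27.3, 98.5 and 584 CPM at day 1 (1.20 ± 0.49, FDR 0.816), and RPN11, the lid deubiquitinase gene, 223, 494 and 142 CPM at day 28, against 489, 431 and 798 CPM at day 1 (-1.13 ± 0.49, FDR 0.84). Chaperonin, Hsp70 and Hsp90 genes had a median of -0.31 (29 tested). Without overlap, 4 were lower (13.8%) and 2 higher (6.9%), against 6.63 and 1.6% of all tested plasmids. SSA2, a cytosolic Hsp70 gene, had 21.7, 13.4 and 35.9 CPM at day 28, against 85.6, 122 and 36.8 CPM at day 1 (-1.75 ± 0.81, FDR 0.869). After the subtraction SSA2 had a value of 0.47, and at day 1 it stood at 6.38 to 26.9% of T0.

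Among structural genes of division, the kinetochore and spindle pole body list had a median of 0.03 over 46 plasmids, with 3 lower (6.52%) and 1 higher (2.17%) without overlap. NNF1, a kinetochore gene, had 0, 0 and 1.33 CPM at day 28, against 38.6, 40.9 and 16.8 CPM at day 1, whereas AME1, of another kinetochore complex, had 820, 422 and 842 CPM at day 28, against 294, 330 and 473 CPM at day 1 (0.89 ± 0.43, FDR 0.891). At day 1 NNF1 stood at 7.68 to 21.6% of T0 and AME1 at 75.2 to 129%. The remaining lists had medians of -0.22 (peroxisome, 1 of 32 lower without overlap), -0.17 (tubulin and actin, 2 of 21 lower), -0.14 (histones, 0 of 11 in either direction), -0.12 (glyoxylate, gluconeogenesis and acetate use, 0 of 13), 0.02 (glycolysis and fermentation, 1 of 15 higher) and 0.13 (amino-acyl tRNA synthetases, 1 of 14 lower).

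**Figure D5:**
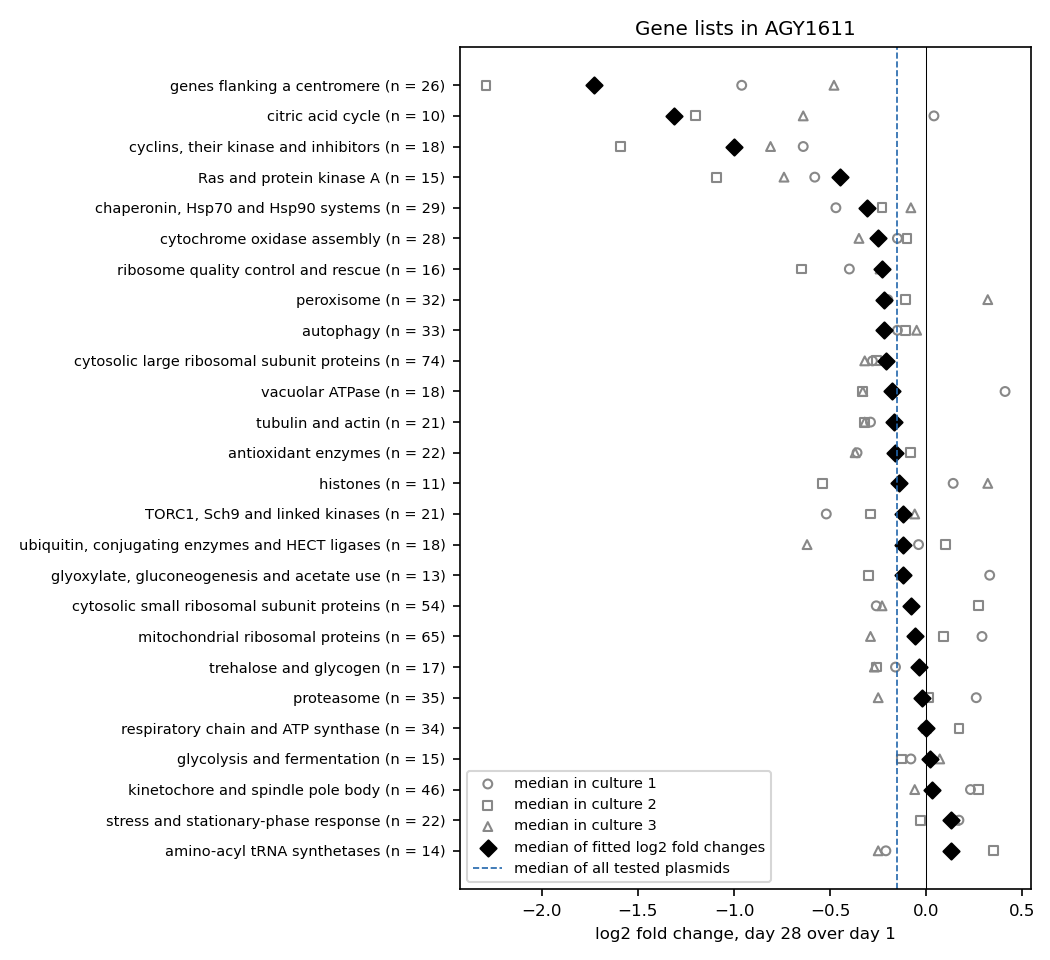
Median log2(fold change), day 28 over day 1, of 26 gene lists in AGY1611 (diamonds) with the median in each culture (open symbols); the dashed line is the median of all tested plasmids, -0.15. Centromere-flanking genes, the citric acid cycle and cyclins lie lowest at -1.73, -1.31 and -1.0, and the others lie between -0.45 and 0.13.

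The change from day 1 to day 28 was compared between strains in the same fit, and 13 plasmids (0.288%) differed at FDR < 0.1, 5 with a higher and 8 with a lower change in AGY1612. For OM14 the AGY1612 level was 0, 0.792 and 1.01 CPM at day 28, against 269, 457 and 414 CPM at day 1, and the strain difference was -6.53 ± 1.33 (FDR 0.00818). OM14 was thus lower at day 28 in 6 of 6 cultures, and more so in AGY1612. COA1, a cytochrome oxidase assembly gene, had 293, 229 and 493 CPM at day 28 in AGY1611, against 339, 237 and 415 CPM at day 1, a log2(fold change) of 0.00 ± 0.37. COX14, another assembly gene, had 613, 437 and 436 CPM at day 28 and 528, 405 and 377 CPM at day 1 (0.18 ± 0.39), with a strain difference of 2.43 ± 0.60 (FDR 0.0585). The 2 assembly genes were thus level between the days in the euploid, within their errors.

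The fitted values varied with the starting level, the gene and the plasmid. Plasmids under 20 CPM in T0 had a median of -1.45 (261 tested, 74 of them without a count at day 28), and those from 20 to 50 CPM one of -0.81 (451 tested, 26 without a count). From 100 CPM upwards the medians lay between -0.10 and -0.07. With plasmids ranked by gene length into 4 equal groups, short to long, the medians were -0.09, -0.12, -0.12 and -0.33, and 9, 15, 24 and 67 plasmids had no count at day 28. The mean T0 level of these groups was 259, 241, 221 and 165 CPM, so the longest genes also began lowest. Chromosome medians ran from -0.26 (chromosome XIII) to -0.03 (chromosome I), and chromosome XII had -0.18.

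A gene with 2 separate entries in the library gives a further look at the spread between plasmids. For 44 such genes with both entries tested, 29 pairs had the same sign and 15 opposite signs, and the median difference within a pair was 0.94 on the log2 scale. The DID4 entries had -0.86 and -6.33, and those of MRX20 had 0.83 and -2.40. Across the 44 genes Spearman's rho was 0.44 and Pearson's r 0.20, a description across genes that share libraries. The empty vector had 1, 244 and 1 counts at day 28 and 3, 268 and 3 at day 1, so it could be read in culture 2 alone. The 364 plasmids that were not tested did not pass the filter on counts, and 204 of them had none in any of the 6 samples.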

How the data were processed

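Plasmid barcodes were amplified from recovered plasmids and sequenced, and the authors deposited raw counts of barcode reads, a row for each plasmid and a column for each sample. The counting program and any build are not given in the sources used here. All sample columns belonged to the series, and 0 others were present. Systematic names were matched to the RefSeq gene table (assembly R64) for 4865 of 4872 rows, and 7 were not matched. No coordinates or sequences are given.

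The analysis used edgeR 4.0.16 in R 4.3.3. Plasmids were filtered with filterByExpr by group over 18 libraries, library sizes were TMM scaled, and the quasi-likelihood F-test was run on the 12 day 28 and day 1 libraries with culture as a block and a day 28 term per strain, which left 4 residual degrees of freedom. Tests were two-sided with Benjamini-Hochberg adjustment over 4508 plasmids. Standard errors are the fitted log2(fold change) over the square root of F. T0 libraries were kept out of the spread because they were not plated and vary less. The members, lists, named-gene rule and this fit were chosen with earlier results of these data known, among them the different numbers of calls with 18 and 12 libraries.

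Replicate numbers pair aliquots of 1 flask by the growth protocol. Deviations from the group means correlated at 0.33, 0.49 and 0.51 within numbers in AGY1611 and at -0.46 to -0.09 between numbers. The deviations of a plasmid within a group cancel out, so the negative sign between numbers partly follows from the positive sign within numbers. Cultures 1 to 3 come from fewer independent transformations than there are cultures, so they are not all independent in this respect. Which cultures share a transformation is not given, so p-values measure the spread between these cultures.

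Named plasmids were, by rule, the 20 of lowest p with the same direction in 3 cultures, the 8 highest and 8 lowest mean paired changes (log2 of CPM plus 2) at a mean of 50 CPM or more, the 5 most abundant at day 1 without a day 28 count, the 3 most abundant, members of lowest p per list, genes followed by the study, and 6 strain differences. Bounds use a floor of 3 counts over the group. Alternatives were RLE factors, total counts, other filters, no block, 6 or 18 libraries, DESeq2 1.42.0, FDR < 0.05, thinning, leaving out each culture and a subtraction of the T0 share. Only the edgeR fit for AGY1611 was run on simulated counts with known changes, and its recovery is not given here. Figures were drawn with matplotlib 3.10.9.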

Additional observations from a re-analysis of the deposited data

Results flagged for a closer look

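For 13 plasmids the change from day 1 to day 28 differed between the strains by the test of the difference itself (AGY1612 minus AGY1611, edgeR quasi-likelihood fit, FDR < 0.1). COA1 had a difference of 4.36 ± 0.57, with 4340, 9970 and 647 CPM at day 28 in AGY1612, against 212, 147 and 107 CPM at day 1, and a log2(fold change) of 0.00 in AGY1611. COA3, a partner in cytochrome oxidase assembly, differed by 3.04 ± 0.73 (2.83 in AGY1612 and -0.21 in AGY1611). OM14 differed by -6.53 ± 1.33 (-8.97 and -2.44), NPL3, an RNA-binding protein gene, by -4.07 ± 0.88 (-5.06 and -0.98), SOK1 by -3.29 ± 0.70 (-2.83 and 0.46) and SBP1, a translation repressor gene, by -2.89 ± 0.59 (-2.72 and 0.17). In AGY1611, NPL3 had 182, 151 and 203 CPM at day 28, against 488, 305 and 289 CPM at day 1, without overlap and with FDR 0.957. The other 7 were YCT1 (4.12 ± 1.07; 0.55 in AGY1612 and -3.57 in AGY1611), COX14 (2.43 ± 0.60; 2.61 and 0.18), the mitochondrial protease gene AFG3 (2.12 ± 0.54; 1.93 and -0.19), EMI1 (-2.82 ± 0.72; -1.71 and 1.12), MDM38, of the inner mitochondrial membrane (-3.75 ± 0.92; -3.64 and 0.11), SSC1, the main mitochondrial Hsp70 (-4.81 ± 1.25; -4.47 and 0.34), and VMA3, a vacuolar ATPase subunit gene (-8.25 ± 2.02; -8.91 and -0.65). VMA3 had 0 counts in all 3 AGY1612 cultures at day 28, so its fitted values depend on the prior count and are no bounds. The AGY1611 change itself was called for 0 of the 13 and that of AGY1612 for 11, the exceptions being EMI1 (FDR 0.163) and YCT1 (FDR 0.972).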

How the results depend on the processing

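The number of AGY1611 calls, 0 in the paired 12-library fit, stayed 0 with FDR < 0.05, RLE factors, total counts, the filter over 12 libraries, no replicate block and the T0 share subtracted from day 1. It was 1 (YCT1) with the filter on T0 counts and with no filter, 8 with the 6 AGY1611 libraries and replicate block, 43 with 18 libraries and no replicate block, 25 with 18 libraries and replicate block and 39 with DESeq2. Leaving out each culture gave 0 to 3, with 3 without culture 1 and 3 without culture 3. The FDR of YCT1 ran from 0.00211 to 1. The 13 strain differences became 5 at FDR < 0.05, 6 with total counts, 5 with the filter over 12 libraries, 1 with no replicate block, 51 with DESeq2, 3 with the subtraction and 1 to 4 when a culture was left out (1 without culture 2). The median of all plasmids, -0.15, was -0.04 with 6 libraries, 0.00 and -0.01 with 18 libraries without and with replicate block, and 0.00 with the subtraction. Plasmids with no count differed by 288 to 525 and the effective number by -141 to 162 when a culture was left out. The cause of these changes was not tested.

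With the subtraction the sign turned for DOM34 (1.51), SSQ1 (1.69), COX12 (1.65), SOD2 (0.86), SSA2 (0.47), TAL1 (-0.08) and SBP1 (0.00). No plasmid was called in that fit, in which day 1 counts below the share were set to 0. HEL2 turned to 0.32 with no replicate block and 0.45 with 18 libraries and no replicate block, and RQC1 to 0.05 with 18 libraries and no replicate block. SLM5 was 0.02, 0.00 and 0.01 with 6 libraries and with 18 libraries without and with replicate block. COA1, 0.00 in the paired fit, was 0.03 with RLE factors, no replicate block and DESeq2, 0.07 with total counts, 0.01 with the filter over 12 libraries, 0.11 with 6 libraries, and 0.15 and 0.12 with 18. With a culture left out, ATP15 ran from -0.01 to 0.35, SLM5 from -0.19 to 0.01, TAL1 from -0.20 to 0.35, RQC1 from -0.61 to 0.07, COA1 from -0.11 to 0.15 and COA3 from -0.39 to 0.04. Plasmids of few counts at day 28 are limited by depth.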
